A study of Homo sapiens with 9 samples.

Results

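Striated muscle genes at low level in U-2 OS, a cell line from a human bone tumour, were examined through 5 genes: XIRP1, CSRP3, ANKRD2, SYNPO2L and HSPB2. They are 5 of the 38176 genes of the count table, and all 5 were among the 21071 genes tested. They were chosen on measured values of these same libraries, XIRP1 because it was higher in XCR1-edited cells than in NTC cells, and the other 4 because they were lower in SUGP1-edited cells than in the controls. Those differences are therefore given as a description, and a count of calls in them is no evidence about the genes. Tests are given for differences that the choice did not name, although they share libraries with it: XIRP1 between SUGP1-edited and NTC cells, the other 4 genes between XCR1-edited and NTC cells, and all 5 between experiments.

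RNA was sequenced from cells transfected with mRNA for the nuclease Cas9 and with a guide RNA to SUGP1 (crSUGP1), a guide RNA to XCR1 (crXCR1) or a guide without a target in the genome (NTC), in 3 independent experiments with 1 library per guide, or 9 libraries. SUGP1 encodes a predicted RNA-binding protein of the nucleus, and XCR1 a chemokine receptor of dendritic cells, so crXCR1 was the control for DNA cutting itself. Each library came from a pool of transfected cells in which edited and unedited cells can occur together, each edited gene was represented by a single guide, and all groups received Cas9 mRNA. The labels give 50 nM guide RNA and 72 h before fixation for the screen in plates, while RNA was taken from cells in flasks. The experiment of a library was taken from the number in its name.

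Striated muscle, that is heart and skeletal muscle, contracts through sarcomeres, in which actin filaments are anchored at the Z-disc and myosin filaments pull on them. The Z-disc and the costamere, which ties it to the cell membrane, also carry proteins that respond to load and injury, and the genes described here belong mostly to this group. XIRP1 encodes a protein with Xin repeats that binds actin filaments at the attachment sites of muscle cells. CSRP3 encodes muscle LIM protein, a Z-disc protein in which mutations cause cardiomyopathy, and SYNPO2L a Z-disc protein related to synaptopodin. ANKRD2 belongs with ANKRD1 and ANKRD23 to the muscle ankyrin repeat proteins, which bind titin and respond to stretch. HSPB2 is a small heat shock protein of heart and skeletal muscle that binds the kinase DMPK, and its gene lies head to head with that of CRYAB, another member of the family.

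The libraries held 68712738 to 107952835 counts of read pairs. SUGP1 mRNA had a log2 fold change of -2.01 in crSUGP1 against NTC, and XCR1 was too low to be tested. Against the labelled origin of the line, the osteoblast markers COL1A1 and SPARC were at 743 and 895 CPM on average (counts per 1e6, scaled by TMM), while COL1A2, SP7 and IBSP of the same list were at 0.147, 0.0144 and 0.00511 CPM. The skeletal muscle regulators MYOG, MYF5 and MYF6 had 0 counts in all 9 libraries, MYOD1 was at 0.021 CPM, and the cardiac myosin gene MYH6 at 0.0166 CPM. Some heart genes were present at higher levels, with NKX2-5 at 30.8 CPM. TNNT2 and MYL2, which are not among the 6 cardiac markers, were at 17.3 and 15.1 CPM. These 6 markers summed to 25.3 to 41.2 CPM in crSUGP1, 31.8 to 39.3 CPM in crXCR1 and 30.9 to 37.4 CPM in NTC. Of this, NKX2-5 made up 31.7, 31.0 and 29.6 CPM in these groups on average. The markers NPPA, NPPB, TNNI3 and MYL7 were at 1.87, 1.28, 0.84 and 0.01 CPM over the 9 libraries. The part of these transcripts in the results was not tested. The 12 skeletal muscle markers summed to 8.55 to 11.8 CPM in crSUGP1, 9.31 to 13.1 CPM in crXCR1 and 8.71 to 12.2 CPM in NTC, of which PAX7, a regulator of muscle stem cells, made up 6.72, 7.43 and 7.03 CPM in these groups on average. In bulk samples such as these, fewer cells with a transcript and less of it per cell cannot be told apart.

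The 5 genes had low counts, 16 to 369 per library. On a scale that allows genes to be compared, CPM per kb of annotated exon, HSPB2 averaged 2.72, ANKRD2 1.02, CSRP3 0.255, XIRP1 0.235 and SYNPO2L 0.132 over the 9 libraries, against a median of 2.8 over the genes tested. The order of the levels per kb depended on the guide. HSPB2 came first and ANKRD2 next in all 3 groups, without overlap between their libraries. In crSUGP1 libraries XIRP1 (0.162 to 0.172 CPM per kb), CSRP3 (0.11 to 0.139) and SYNPO2L (0.0704 to 0.0972) followed without overlap. In crXCR1 libraries XIRP1 (0.335 to 0.496 CPM per kb) and CSRP3 (0.335 to 0.373) overlapped and lay above SYNPO2L (0.135 to 0.18). In NTC libraries CSRP3 (0.276 to 0.292 CPM per kb) lay above SYNPO2L (0.13 to 0.17) and XIRP1 (0.0688 to 0.14), and the libraries of SYNPO2L and XIRP1 overlapped, so XIRP1 ranked above CSRP3 by mean in crSUGP1 and crXCR1 and last in NTC.

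**Figure D1:**
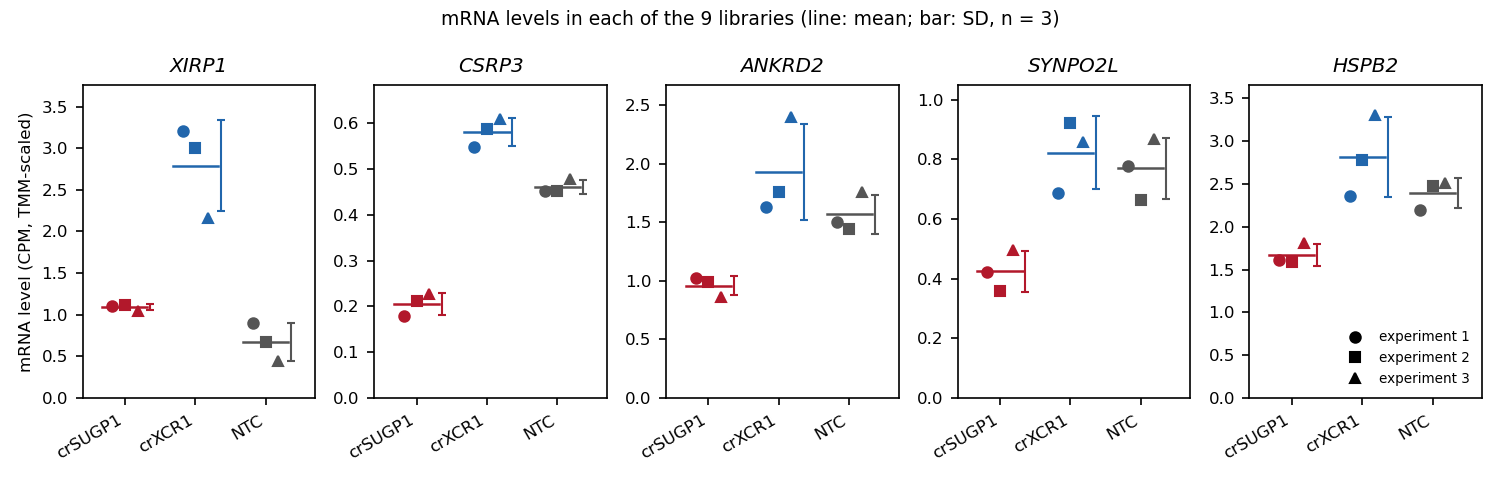
mRNA level in CPM (TMM-scaled, y axis from 0) of the 5 genes in the crSUGP1, crXCR1 and NTC libraries. Each symbol is a library with its shape giving the experiment, lines are group means and bars SD (n = 3 each). XIRP1 lies at 2.17 to 3.21 CPM in crXCR1, above the other 6 libraries, and the other 4 genes lie lower in crSUGP1 than in both controls.

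XIRP1 spans positions 39183210 to 39192596 of chromosome 3 (GRCh38, minus strand) with 2 exons in its main transcript, and no other annotated gene overlaps it. The 250 bases before its start in RefSeq (GRCh38.p14, chr3:39192596-39192845, minus strand) are shown because they hold a MEF2 site, the binding motif of a transcription factor family of muscle, which is in capitals and begins 111 bases before the start.
XIRP1: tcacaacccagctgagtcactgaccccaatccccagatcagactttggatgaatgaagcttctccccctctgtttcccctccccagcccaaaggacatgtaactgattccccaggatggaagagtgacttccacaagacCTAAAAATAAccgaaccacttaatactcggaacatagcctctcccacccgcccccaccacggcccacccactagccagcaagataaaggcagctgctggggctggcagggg
This motif was found on either strand in 2.8% of the 35116 windows of this length in RefSeq. The window also holds 2 E-boxes (CANNTG, the motif of the MyoD family, read the same on both strands, in 61.8% of windows), and the CArG box of SRF (1.16% of windows), the MCAT motif of TEAD factors (CATTCC, 11.9%) and TATAAA (10.7%) were not found in it. A match is a stretch of letters and not a measured site.

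XIRP1 had 105, 90 and 74 counts in the crSUGP1 libraries of experiments 1, 2 and 3, 275, 215 and 242 in the crXCR1 libraries, and 86, 48 and 41 in the NTC libraries. Scaled for depth these were 1.11, 1.12 and 1.05 CPM in crSUGP1, 3.21, 3.00 and 2.17 CPM in crXCR1, and 0.905, 0.677 and 0.445 CPM in NTC. The 3 groups did not overlap, with crXCR1 above crSUGP1 and crSUGP1 above NTC. Of all genes tested, 2.71% had every crXCR1 library above every NTC library and 8.51% had every crSUGP1 library above every NTC library.

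Between crXCR1 and NTC, the difference for which XIRP1 was chosen, its log2 fold change was 2.04 (standard error 0.239), or 4.11-fold, and this was the highest of the 21071 genes tested. Within experiments 1, 2 and 3 the ratio of crXCR1 to NTC was 3.54, 4.43 and 4.87. Without a term for the experiment, edgeR's quasi-likelihood test called 0 genes between crXCR1 and NTC (0% of those tested, with 282 at an unadjusted p under 0.05, and 0 called by DESeq2, with 224, which gave XIRP1 no adjusted p). The study's own DESeq2 run, at the same thresholds, reported XIRP1 as the only mRNA that changed between these groups. With the experiment as a block 1 gene was called, or 0.00475% of those tested, and this was XIRP1, which had been chosen for this difference, so the call is no evidence about it. When the 3 libraries of experiment 3 were left out, a fit added after the data were seen, its log2 fold change was 1.95. Between crSUGP1 and crXCR1, which shares the crXCR1 libraries with the choice, the log2 fold change was -1.35 (standard error 0.23).

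Between crSUGP1 and NTC, the comparison of XIRP1 that the choice did not name though it shares the NTC libraries, XIRP1 was at 1.09 ± 0.0361 CPM in crSUGP1 and 0.676 ± 0.23 CPM in NTC (SD, n = 3 each). This was a log2 fold change of 0.69 (standard error 0.248), which passed neither edgeR's quasi-likelihood test (adjusted p = 0.259, Benjamini-Hochberg) nor that of DESeq2 (adjusted p = 0.153). With the experiment as a block XIRP1 passed as higher (adjusted p = 0.0109 from edgeR), where 1.00% of all genes were called higher, against 0.327% without the block. The size differed between experiments, with log2 differences of 0.29, 0.72 and 1.24 in experiments 1, 2 and 3, all positive. Leaving out single libraries gave log2 fold changes of 0.45 (without NTC replicate 3) to 0.97 (without NTC replicate 1).

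**Figure D2:**
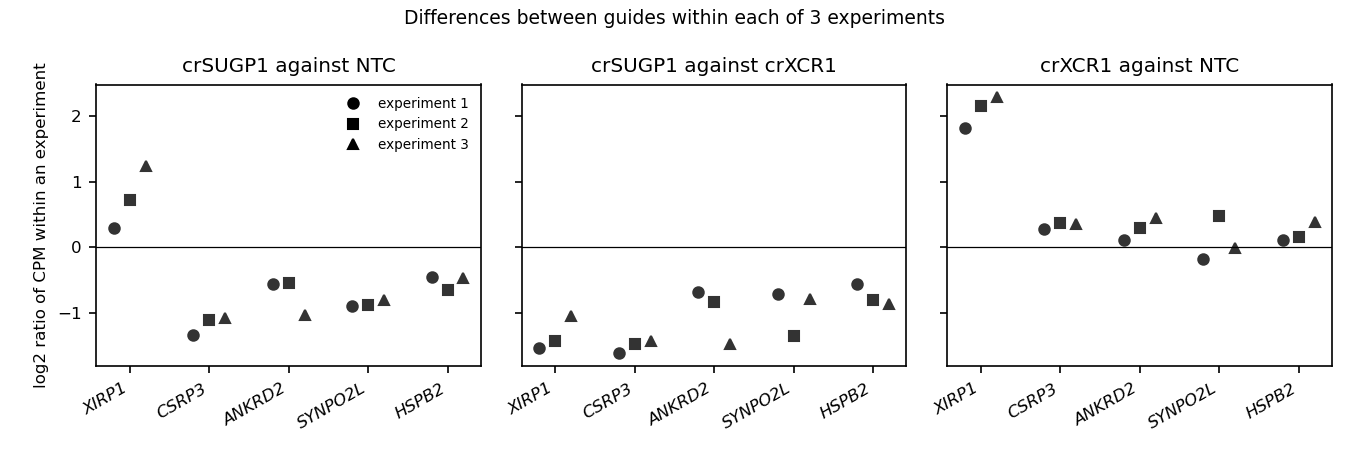
log2 ratio of CPM between the guides within each of the 3 experiments (y axis) for the 5 genes (x axis), in 1 panel per comparison, with symbols for the experiments. The 3 values of XIRP1 are above 0 in crSUGP1 against NTC (0.29 to 1.24) and in crXCR1 against NTC (1.82 to 2.28), and the 3 values of CSRP3, ANKRD2, SYNPO2L and HSPB2 are below 0 in both comparisons of crSUGP1.

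XIRP1 also differed between the experiments, which the choice did not use. An edgeR test of any difference among the 3 experiments gave an adjusted p of 0.0147 for XIRP1. Over the 3 guides its level in experiment 3 was 0.46 lower on the log2 scale than the mean of experiments 1 and 2. This contrast was not itself tested. The difference between crXCR1 replicate 3, at 2.17 CPM, and the other crXCR1 libraries, and that between NTC replicate 3, at 0.445 CPM, and the other NTC libraries, went the same way, while the crSUGP1 libraries lay within 1.05 to 1.12 CPM. Differences between experiments were common, with 40.8% of all genes past this threshold. The call for XIRP1 was lost without crXCR1 replicate 1 (adjusted p = 0.0643 from edgeR), without crXCR1 replicate 3 (0.164) and without NTC replicate 3 (0.0721). The other 4 genes did not pass the test of any difference, with adjusted p = 0.793 for CSRP3, 0.189 for ANKRD2, 0.441 for SYNPO2L and 0.0645 for HSPB2 from edgeR. The contrast of experiment 3 was 0.11, 0.26, 0.21 and 0.23 for these genes, so its sign was positive for them and negative for XIRP1.

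No tested gene around XIRP1 had a difference near its size, and most had the other sign. Of the 11 other tested genes that start within 250 kb of it, 10 were lower in crXCR1 than in NTC and 0 were called, with log2 fold changes of -0.43 to 0.01 and a median of -0.18. The nearest, the noncoding AC092053.4 at 14.8 kb, had 0.01, and CSRNP1, a gene induced by growth factor signals, at 38.0 kb, had -0.18. RPSA, a ribosomal protein gene, was at -0.18, with 904 CPM in crXCR1 and 1026 CPM in NTC. XIRP1 lies 6.82 Mb from XCR1 on the same chromosome, between it and the end of the short arm, and of the 225 genes at 1 CPM or more on that stretch, whose median was -0.19, TMEM40 came next to XIRP1 at 0.28.

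**Figure D3:**
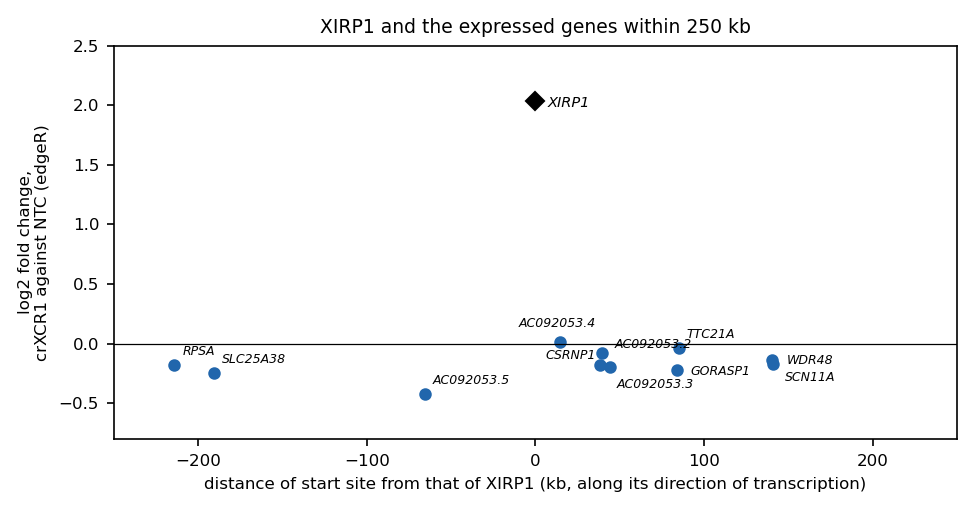
log2 fold change between crXCR1 and NTC (y axis) of XIRP1 (diamond) and the 11 other tested genes (circles) by the distance in kb of their start from that of XIRP1, positive in its direction of transcription (x axis). XIRP1 is at 2.04 and its neighbours at -0.43 to 0.01.

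CSRP3, on chromosome 11 from 19182030 to 19210571 (GRCh38, minus strand, 6 exons), was the scarcest of the 5 by count. It had 17, 17 and 16 counts in the crSUGP1 libraries, 47, 42 and 68 in the crXCR1 libraries and 43, 32 and 44 in the NTC libraries. These were 0.179, 0.211 and 0.227 CPM in crSUGP1, 0.548, 0.586 and 0.609 CPM in crXCR1, and 0.453, 0.451 and 0.478 CPM in NTC. All crSUGP1 libraries lay below all control libraries, and the crXCR1 libraries lay above the NTC libraries. A count of 17 has an exact 95% Poisson interval of 9.9 to 27.2, which, without molecular identifiers, covers only the error of counting. The log2 fold change in crSUGP1, for which the gene was chosen, was -1.17 against NTC (standard error 0.169) and -1.51 against crXCR1 (standard error 0.165). The differences within experiments were close to each other, at -1.34 to -1.08 against NTC and -1.61 to -1.43 against crXCR1. The annotation places the antisense gene CSRP3-AS1 over the same span, with 0 exon bases in common.

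ANKRD2 lies on chromosome 10 from 97572499 to 97583884 (GRCh38, plus strand, 9 exons). It had 97, 80 and 61 counts (1.02, 0.992 and 0.864 CPM) in the crSUGP1 libraries, 140, 126 and 268 counts (1.63, 1.76 and 2.4 CPM) in the crXCR1 libraries, and 143, 102 and 162 counts (1.51, 1.44 and 1.76 CPM) in the NTC libraries. The crSUGP1 libraries were below both controls, which overlapped each other, and crXCR1 replicate 3 stood above the rest. The log2 fold change in crSUGP1, part of the choice, was -0.71 against NTC (standard error 0.172) and -1.01 against crXCR1 (standard error 0.17). Experiment 3 gave the largest differences, -1.02 against NTC and -1.47 against crXCR1, and experiments 1 and 2 gave -0.56 and -0.54 against NTC and -0.68 and -0.83 against crXCR1.

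The gene SYNPO2L is on chromosome 10 from 73644881 to 73663803 (GRCh38, minus strand, 4 exons). It had 40, 29 and 35 counts (0.421, 0.359 and 0.496 CPM) in the crSUGP1 libraries, 59, 66 and 96 counts (0.688, 0.921 and 0.860 CPM) in the crXCR1 libraries, and 74, 47 and 80 counts (0.779, 0.663 and 0.868 CPM) in the NTC libraries. The crSUGP1 libraries were the lowest, and the controls overlapped. In crSUGP1 it had a log2 fold change of -0.86 against NTC (standard error 0.188) and -0.95 against crXCR1 (standard error 0.187). Against NTC the 3 experiments gave nearly the same value, -0.89 to -0.81, and against crXCR1 they ranged over -1.36 to -0.71. An antisense gene shares 152 of its exon bases, or 2.98%, and how far its reads enter the count was not tested.

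The RefSeq windows of SYNPO2L and ANKRD2 are shown to set beside that of XIRP1. SYNPO2L (chr10:73656030-73656279, minus strand, GRCh38.p14) also holds a MEF2 site, in capitals, 164 bases before the RefSeq start, which lies 7774 bases inside the span given in the count table. The window of ANKRD2 nearest to the start in the table (chr10:97572253-97572502, plus strand) holds no MEF2 site, and its 3 E-boxes are in capitals.
SYNPO2L: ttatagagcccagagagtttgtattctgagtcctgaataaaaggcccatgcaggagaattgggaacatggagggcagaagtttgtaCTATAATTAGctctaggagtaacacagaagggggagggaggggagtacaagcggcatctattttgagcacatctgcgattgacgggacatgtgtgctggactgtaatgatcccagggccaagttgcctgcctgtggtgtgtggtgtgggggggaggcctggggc
ANKRD2: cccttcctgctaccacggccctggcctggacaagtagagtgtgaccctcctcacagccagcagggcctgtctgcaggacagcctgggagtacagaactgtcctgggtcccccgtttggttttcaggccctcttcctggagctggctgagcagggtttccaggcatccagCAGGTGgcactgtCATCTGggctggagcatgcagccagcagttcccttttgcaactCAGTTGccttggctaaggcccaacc
Of the 3 genes with a window, 2 had a MEF2 site, 3 had an E-box and 0 had a CArG box, MCAT or TATAAA. The genes that encode MEF2 factors were expressed, MEF2D at 94.1 CPM and MEF2A at 40.5 CPM on average, and neither was called between any of the guides, though with the block both passed on the adjusted p in crSUGP1 against NTC (0.00222 and 0.0069 from edgeR) at log2 fold changes of 0.26 and 0.23, below the fold required.

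HSPB2, on chromosome 11 from 111912734 to 111914093 (GRCh38, plus strand, 2 exons), had 153, 128 and 128 counts (1.61, 1.59 and 1.81 CPM) in the crSUGP1 libraries, 203, 199 and 369 counts (2.37, 2.78 and 3.30 CPM) in the crXCR1 libraries, and 209, 176 and 232 counts (2.20, 2.48 and 2.52 CPM) in the NTC libraries. The crSUGP1 libraries were the lowest, and the controls overlapped. In crSUGP1 it had a log2 fold change of -0.52 against NTC (standard error 0.14), just past the 0.5 that a call requires, and -0.76 against crXCR1 (standard error 0.139). Within experiments it was -0.65 to -0.45 against NTC and -0.87 to -0.56 against crXCR1.

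What the HSPB2 count measures is uncertain, because 85.3% of its 843 exon bases are also annotated for HSPB2-C11orf52, a readthrough transcript on the same strand, and 70.9% for CRYAB on the other strand. The counts of HSPB2-C11orf52 were nearly those of HSPB2, with 158, 129 and 133 in crSUGP1, 206, 203 and 375 in crXCR1 and 209, 171 and 236 in NTC. These 2 entries are thus not separate measurements. C11orf52, the next gene along, had between 3 and 12 counts per library. CRYAB, a chaperone of the lens and of muscle, was far more abundant, with 2777, 2559 and 3093 counts in crSUGP1, 3486, 3243 and 6355 in crXCR1, and 3559, 2664 and 4912 in NTC. Against NTC its log2 difference was -0.29, and against crXCR1 it was -0.45, smaller than that of HSPB2, and it was not called (adjusted p = 0.583 and 0.296 from edgeR, and 0.00116 and 2.49e-05 with the block, below the fold required). Within experiments CRYAB was also lower in crSUGP1 each time, at -0.36 to -0.24 against NTC and -0.51 to -0.38 against crXCR1. Per 100 CRYAB counts there were 4.14 to 5.51 HSPB2 counts in crSUGP1, 5.81 to 6.14 in crXCR1 and 4.72 to 6.61 in NTC, so the crSUGP1 libraries lay below those of crXCR1 and overlapped those of NTC. By experiment this ratio was 5.51, 5.00 and 4.14 in crSUGP1 and 5.87, 6.61 and 4.72 in NTC, so it was lower in crSUGP1 each time. Whether counting used the strand is not given in the sources used here, and the part of CRYAB reads in the HSPB2 count was not tested.

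**Figure D4:**
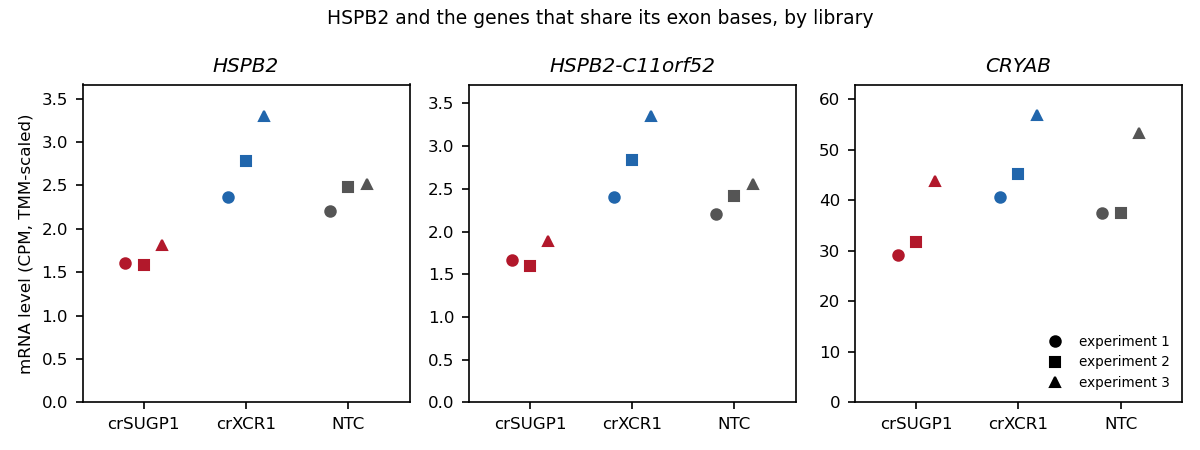
mRNA level in CPM (y axis, from 0 and scaled separately for each gene) of HSPB2, of the readthrough transcript HSPB2-C11orf52 and of CRYAB in the crSUGP1, crXCR1 and NTC libraries, with a symbol per library and its shape for the experiment. The first 2 panels show the same pattern, with crSUGP1 below both controls. The crSUGP1 and control libraries of CRYAB overlap, although within each experiment CRYAB was also lower in crSUGP1 than in both controls.

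Counted together, edgeR's quasi-likelihood test without the block put 1 of the 4 genes chosen in crSUGP1, CSRP3, past the call as lower against NTC, where 0.456% of all genes were called lower, and all 4 against crXCR1, where 0.584% were. XIRP1 was called lower against crXCR1 as well, and 0 of the 5 were called higher there (0.190% of all genes). With the block, 4 of 4 were called lower against NTC (1.85% of all genes) and 4 of 4 against crXCR1 (3.00% lower and 0.897% higher over all genes). All crSUGP1 libraries lay below all NTC libraries for 8.88% of the genes tested and below all crXCR1 libraries for 12.2%. The choice of the genes used these contrasts, so the counts are no evidence about them. Without crSUGP1 replicate 1, crSUGP1 replicate 2 or NTC replicate 1, 0 of the 4 were past the call against NTC, and against crXCR1 none of the 9 fits that left out a library called all 4.

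Between crXCR1 and NTC, CSRP3, ANKRD2, SYNPO2L and HSPB2 did not pass the test. The choice did not name this difference, but both groups were controls in it, so these tests are not independent of the choice. CSRP3 averaged 0.581 ± 0.0309 CPM in crXCR1 and 0.461 ± 0.0148 CPM in NTC (SD, n = 3 each), with a log2 fold change of 0.33 (standard error 0.147). Values on this scale were 0.30 for ANKRD2 (standard error 0.164), 0.23 for HSPB2 (standard error 0.136) and 0.09 for SYNPO2L (standard error 0.175). The adjusted p was 1 for each of the 4 from edgeR without the block, and 0.794, 0.662, 0.656 and 0.993 for CSRP3, ANKRD2, HSPB2 and SYNPO2L with it. CSRP3, ANKRD2 and HSPB2 were higher in crXCR1 in 3 of 3 experiments, at 0.10 to 0.45 on the log2 scale, and SYNPO2L in 1 of 3, and its sign turned (-0.0029) without NTC replicate 2.

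Relatives of the 5 genes were more abundant in several cases and none of them was called. XIRP2, the other Xin repeat gene, was at 0.0412 CPM per kb and XIRP1 at 0.235, and XIRP2 had a log2 fold change of -0.39 in crXCR1 against NTC (adjusted p = 1 from edgeR). CSRP1, at 17.2 CPM per kb, and CSRP2, at 2.94, which encode related LIM proteins found outside striated muscle, had log2 fold changes of -0.05 and -0.03 in crSUGP1 against NTC, where CSRP3 had -1.17. ANKRD1, at 80.7 CPM per kb the most abundant muscle ankyrin repeat gene in these cells, was at 164 ± 19.5 CPM in crSUGP1 and 133 ± 17.9 CPM in NTC (SD, n = 3 each), with a log2 fold change of 0.30 (adjusted p = 0.412 from edgeR, and 0.000602 with the block, below the fold required), and ANKRD2 had -0.71. ANKRD23 had -0.01. SYNPO and SYNPO2, the genes related to SYNPO2L, had -0.02 and -0.17. Among tested small heat shock genes other than HSPB2, HSPB6 had -0.46, HSPB7 -0.35, CRYAB -0.29 and HSPB1 -0.13 in crSUGP1 against NTC. HSPB8, a partner of the cochaperone BAG3, had 0.24.

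Few of the other striated muscle genes were called between guides. Of 96 other genes of the Z-disc and costamere, the contractile filaments, and calcium handling and muscle metabolism, 65 were tested. Between crSUGP1 and NTC their median log2 fold change was -0.03, and 29 were higher and 36 lower. Between crSUGP1 and crXCR1 the median was -0.09, with 21 higher and 44 lower, and between crXCR1 and NTC it was 0.05, with 44 higher and 21 lower, against medians over all genes tested of -0.00389, -0.00301 and -0.000525 in these comparisons. Without the block, edgeR called 0 of the 65 in crSUGP1 against NTC (2 at an unadjusted p under 0.05), in crSUGP1 against crXCR1 (9) and in crXCR1 against NTC (2), and DESeq2 also called 0 in each (3, 8 and 2).

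With the block 2 of the 65 were called in crSUGP1 against NTC, where 1.85% of all genes were called lower, and 3 against crXCR1, where 3.00% were, all lower in crSUGP1. SLN, which encodes the calcium pump inhibitor sarcolipin, was at 0.2, 0.198 and 0.298 CPM in crSUGP1, 0.338, 0.405 and 0.6 CPM in crXCR1 and 0.295, 0.310 and 0.543 CPM in NTC. The crSUGP1 libraries of SLN lay below those of crXCR1, and crSUGP1 replicate 3 overlapped NTC. Against NTC its log2 fold change was -0.74 (adjusted p = 0.39 in edgeR, 0.0301 with the block), and against crXCR1 -0.98 (adjusted p = 0.194 in edgeR, 0.00426 with the block). RYR2, the calcium release channel of the heart, was called against NTC (adjusted p = 0.0485 from edgeR with the block). SGCA, a sarcoglycan of the muscle membrane, had the lowest value of the 65 against NTC, -0.78, at 0.0995 CPM in crSUGP1 and 0.165 CPM in NTC, and was not called (adjusted p = 0.696 from edgeR, 0.179 with the block). MYOM3, of the sarcomere's M band, and MYOZ2, a Z-disc protein that binds calcineurin, were called against crXCR1 (adjusted p = 0.00706 and 0.0341 from edgeR with the block).

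The 4 most abundant genes of these lists differed between the guides by less than the fold a call requires. FLNC, the filamin of muscle Z-discs, averaged 727 CPM in crSUGP1, 812 CPM in crXCR1 and 811 CPM in NTC. JSRP1, a protein of the sarcoplasmic reticulum, was at 171, 193 and 182 CPM, ENO3, the enolase of muscle, at 178, 181 and 181 CPM, and TNNT1, the troponin T of slow skeletal muscle, at 142, 156 and 150 CPM in crSUGP1, crXCR1 and NTC. None of these 4 was called in any comparison, with or without the block. With the block, FLNC passed on the adjusted p against crXCR1 (0.0437 from edgeR), below the fold required. ANKRD1, the next in level, is described above.

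**Figure D5:**
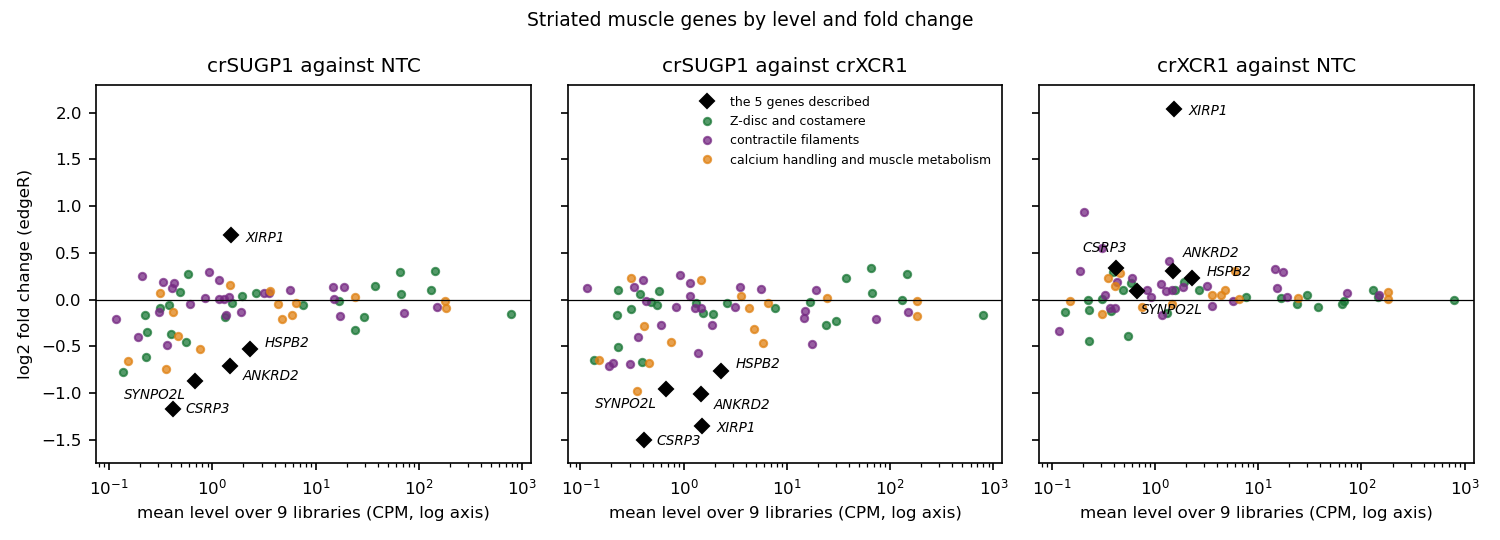
log2 fold change from edgeR (y axis) against the mean level in CPM over the 9 libraries (x axis, log scale) of the 5 genes (diamonds) and the other tested striated muscle genes (circles, coloured by list), in 1 panel per comparison. CSRP3, SYNPO2L and ANKRD2 lie toward the lower edge in both comparisons of crSUGP1, as does SLN (-0.74 against NTC and -0.98 against crXCR1). SGCA (-0.78) lies there against NTC and XIRP1 (-1.35) against crXCR1. XIRP1 stands at 2.04 in crXCR1 against NTC, where the next gene, TNNI2, is at 0.93.

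Around the other 4 genes, most neighbours within 250 kb had smaller differences. Near CSRP3, 3 tested genes had log2 fold changes of -0.23 to 0.14 in crSUGP1 against NTC, and near ANKRD2, 15 tested genes had -0.34 to 0.25. Near SYNPO2L, 1 of 25 tested genes was called, the noncoding AC022400.6, which rose by 0.74 against NTC (edgeR, adjusted p = 0.000829) and by 0.64 against crXCR1 (edgeR, adjusted p = 0.00212), while SYNPO2L was lower. Near HSPB2, 1 of 15 was called, the readthrough HSPB2-C11orf52 against crXCR1.

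The genes whose levels ran most like those of the 5 over the 9 libraries were sought among 16789 other genes at 1 CPM or more on average. None of those found was on the muscle lists used. Few of the genes searched are on these lists, so this says nothing about muscle genes. For XIRP1 these were FLG-AS1 (Pearson correlation of log2 CPM 0.891), CRYBG2 (0.847), AC087269.3 (0.83), TCERG1L-AS1 (0.826) and SOX15 (0.818), whose log2 fold changes between crXCR1 and NTC were 0.20 to 0.38, far under that of XIRP1. For the mean of the other 4 they were KHK (0.985), which encodes ketohexokinase, SLC4A8 (0.982), TMEM143 (0.979), APBB3 (0.976) and HSPB2-C11orf52 (0.975), with log2 fold changes of -0.50 to -0.33 in crSUGP1 against NTC. These correlations describe 9 libraries that share groups and experiments, and the last entry shares reads with HSPB2. The other 4 genes were chosen as lower in crSUGP1, so the sign of the fold changes of their matches follows from that choice.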

How the data were processed

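The deposited table holds 1 count per gene and library, which the authors made by trimming reads from polyA libraries, aligning them to GRCh38 with STAR and summing read pairs over exons in SeqMonk, without normalization. The submitters' processing notes name STAR 2.7.9a, cutadapt 2.4, R 4.1.0, FastQC 0.11.5, DESeq2 1.32.0 and Trim Galore 0.6.7. The strand of counting is not given in the sources used here. Of 38179 entries, 3 that repeated the name and all counts of another were dropped. Splicing was not analysed here.

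The 21071 genes for which any library exceeded -2 on the log2 CPM scale were scaled by TMM and fitted with edgeR 4.0.16 in R 4.3.3 over all 9 libraries with the guide as the only term (6 residual degrees of freedom). A call required both an adjusted p (Benjamini-Hochberg) no higher than 0.05 and a log2 difference of 0.5 or more in size, the thresholds of the study. DESeq2 1.42.0, other scaling and filters, fits to 6 libraries and fits without each library were alternatives, and the fits were tested on simulated data. Totals of 68712738 to 107952835 counts limit the precision of genes with counts as low as these.

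Same-numbered libraries were taken to come from the same experiment. The study's methods state that every independent experiment included each of the guides, but do not link library numbers to experiments. The pairing was checked over 16792 genes: deviations from group means correlated at 0.498 to 0.902 in the 9 same-numbered pairs and at -0.854 to 0.66 in the 18 others. For 8 of the 9 libraries the closest library of another group had the same number, so the pairing is not certain. An alternative fit added the experiment as a replicate block (4 residual degrees of freedom). Libraries of a group differed beyond sampling noise.

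Named genes were the 5 members, their relatives, called or most abundant genes of the lists (Z-disc, filaments, calcium handling, transcription factors, smooth muscle, small heat shock proteins, cell type markers), tested genes within 250 kb, and the 5 genes most like each profile (log2 of CPM plus 0.25). The members, the lists and the rules were chosen with earlier results of these data known. Other genes are named after their values were seen. Exon lengths and overlaps came from GENCODE, and the promoter windows and motif counts from RefSeq, where 3 of the 5 genes had an entry.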

Additional observations from a re-analysis of the deposited data

How the results depend on the processing

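Across the alternatives, the direction of the 5 genes held in every fit of crSUGP1 against either control and of XIRP1 in crXCR1 against NTC, and only SYNPO2L in crXCR1 against NTC turned, at -0.0029 without NTC replicate 2. The replicate block, a pairing by experiment, gave 601 called genes against NTC in crSUGP1 (165 without it), 821 against crXCR1 (163) and 1 in crXCR1 against NTC (0), of which 6, 7 and 1 were striated muscle genes (1, 4 and 0 without it), mostly the genes chosen for these differences: without those, 2, 3 and 0 of 65 were called with the block and 0, 0 and 0 without it. With it, XIRP1 (0.68), ANKRD2 (-0.69), SYNPO2L (-0.86) and HSPB2 (-0.52) were called in crSUGP1 against NTC and XIRP1 (2.04) in crXCR1 against NTC, and it changed no other call of the 5 genes. DESeq2 called 271 genes in crSUGP1 against crXCR1, and against NTC 2 striated muscle genes, ANKRD2 (-0.71) and SYNPO2L (-0.87). It gave no adjusted p to CSRP3 in any comparison, nor to any of the 5 genes in crXCR1 against NTC. Library totals without a scaling factor (-0.97) and no filter on low counts (-0.95) ended the call of SYNPO2L against crXCR1, and no filter brought HSPB2 past the threshold between experiments (0.24). A minimum mean of 1 CPM, under which CSRP3 and SYNPO2L could not be tested, left 0 striated muscle genes called against NTC and 2 against crXCR1. Fits to the 6 libraries of a comparison gave 107 and 102 called genes in crSUGP1 against NTC and crXCR1, 0 and 2 of them striated muscle genes, and ended the calls of CSRP3 against NTC (-1.17) and of ANKRD2 (-1.01), SYNPO2L (-0.95) and HSPB2 (-0.76) against crXCR1. Leaving out experiment 3, which was added after seeing the data, gave 413 and 484 genes in crSUGP1 against NTC and crXCR1 and 1 in crXCR1 against NTC, with 3 striated muscle genes against NTC and 1 in crXCR1, and brought ANKRD2 (-0.56), SYNPO2L (-0.89), HSPB2 (-0.55) and, in crXCR1, XIRP1 (1.95) past the threshold. Leaving out 1 library gave 92 (without crSUGP1 replicate 2; 97 without NTC replicate 1) to 166 genes against NTC and 82 (without crSUGP1 replicate 2) to 157 against crXCR1, where leaving out crSUGP1 replicate 1 or any crXCR1 library gave 85 to 97, with 0 to 2 and 1 to 3 striated muscle genes. The log2 fold changes were then -1.25 to -1.07 for CSRP3 and -0.76 to -0.61 for ANKRD2 against NTC, and against crXCR1 -1.51 to -1.24 for XIRP1, -1.12 to -0.82 for ANKRD2, -1.07 to -0.84 for SYNPO2L and -0.87 to -0.62 for HSPB2. Those of SYNPO2L in crXCR1 against NTC were -0.0029 to 0.20. The differences between experiments were -0.58 to -0.37 for XIRP1 and 0.076 to 0.40 for ANKRD2, which passed without crSUGP1 replicate 3. The causes were not tested. With 16 to 369 counts per library, depth limits all 5 genes.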

Other observations

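Among genes of smooth muscle, which contracts without sarcomeres, CNN1, a calponin that binds actin, was lower in crSUGP1. It was at 8.27, 7.47 and 8.18 CPM in the crSUGP1 libraries, 16.0, 14.3 and 20.0 CPM in the crXCR1 libraries and 14.4, 13.8 and 16.6 CPM in the NTC libraries, so that all crSUGP1 libraries lay below both controls. CNN1 thus had a log2 fold change of -0.90 against NTC (edgeR, adjusted p = 0.00905) and of -1.07 against crXCR1 (edgeR, adjusted p = 0.00352). It was the only one of 10 tested smooth muscle genes called. Of all genes tested, 0.456% were called lower against NTC and 0.584% against crXCR1. TPM1, a tropomyosin, had -0.23 and -0.36 and ACTA2, smooth muscle actin, 0.42 and 0.15, and neither was called. With the block, TPM1 passed on the adjusted p (0.00297 and 9.78e-05 from edgeR), below the fold required. So did ACTA2 against NTC (0.00862 from edgeR), but not against crXCR1 (0.271). The 6 smooth muscle markers, which include CNN1, summed to 65.9 to 78.0 CPM in crSUGP1, 76.0 to 80.04 CPM in crXCR1 and 76.0 to 78.3 CPM in NTC.

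Of 23 tested transcription factors of muscle, edgeR called 0 in crSUGP1 against NTC (3 at an unadjusted p under 0.05), 0 in crSUGP1 against crXCR1 (3) and 0 in crXCR1 against NTC (0), and DESeq2 called 0 in each, with the same counts at an unadjusted p under 0.05. TEAD1, a partner of the coactivator YAP, averaged 218 CPM over the 9 libraries and SRF, the serum response factor, 80.8 CPM. NKX2-5, a cardiac factor, was at 31.7 ± 8.81 CPM in crSUGP1, 31.0 ± 3.78 CPM in crXCR1 and 29.6 ± 3.17 CPM in NTC (SD, n = 3 each), with the cardiac myosin genes MYH6 and MYH7 at 0.0166 and 0.0129 CPM. NPPB, a natriuretic peptide of the heart, had a log2 fold change of -0.52 in crSUGP1 against NTC and -0.80 against crXCR1 and was called lower with the block (adjusted p = 0.0448 and 0.0026 from edgeR), not without it (0.534 and 0.245).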
